A study of Ovis aries with 24 samples.

Results

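IL1A, IL6 and CXCL8 encode 3 inflammatory signalling proteins, and their transcripts were measured in the ductus arteriosus and the aorta of sheep before and after birth. The genes were chosen by values measured on these same arrays: a ductus excess that was already there in the fetus for IL1A, and a rise around birth for IL6 and CXCL8. They are 3 of the 660 named genes that could be tested, and they were read by 5 of the 15008 probes on the array, found by the gene name or description that the array gives. IL1A and CXCL8 each had 2 probes, called here the brighter and the dimmer by their mean over all arrays, and IL6 had 1. CXCL8 appears on the array under its older name, IL8.

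The ductus arteriosus joins the pulmonary artery to the aorta in the fetus and closes after birth, first by constriction of its muscle and then by remodelling of its wall. Interleukin-1 alpha, the product of IL1A, is made as a precursor that stays in or on the cell and is set free when cells are damaged; like interleukin-1 beta it acts through the interleukin-1 receptor and NF-kappaB. Interleukin-6 is secreted, signals through its receptor and the shared subunit gp130 to STAT3, and is the classical inducer of the acute-phase response. CXCL8, also called interleukin-8, is a secreted chemokine that draws neutrophils through the receptors CXCR1 and CXCR2. Transcription of IL6 and CXCL8 is known to be induced by interleukin-1.

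The data cover 24 arrays, 4 for each vessel and stage. The 6 groups were ductus and aorta of preterm fetuses (97 days of gestation in the labels, 100 in the sample titles), of near-term fetuses (136 days in the labels, 140 in the titles) and of newborn lambs 12 hours old. The labels name no genotype, strain or treatment that differed between the groups, call the aortic tissue ascending aorta, and elsewhere describe it as the segment next to the ductus. They give 4 animals per group and leave unsaid whether equal numbers in both vessels mark the same animal. The p-values set differences between groups against the spread between these samples, with all 24 arrays taken as independent. RNA came from whole vessel segments, so that more cells making a transcript and more transcript per cell cannot be told apart.

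Levels are given as log2 of the processed signal minus log2 of the 75th percentile of that array, so that 0 is the signal at the 75th percentile and 1 unit is a doubling. The 75th percentile of the processed signal lay between 322 and 1143, and 66.2% to 94.4% of spots on an array were well above background by the scanner software. The spike-in detection limit that the software reports split the arrays into 12 above 1.5 and 12 under it, and every newborn ductus array was under 1.5. Each stage had its own slide, with the ductus in one column and the aorta in the other. Stage therefore cannot be told apart from slide, nor vessel from column. Calponin 1 (CNN1), a contractile protein of smooth muscle and the only 1 of 8 smooth muscle markers that could be tested, was called higher at birth in the aorta and was at 27.6 to 85.2 times the 75th percentile in all groups. Its spot was left out on 1 near-term aorta array.

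IL1A was a ductus transcript at all 3 stages, and within each vessel its arrays overlapped from preterm to newborn. In the ductus the brighter probe was well above background on 12 of 12 arrays. The preterm ductus arrays read -1.18, -1.57, -0.94 and -1.51 for replicates 1 to 4, a mean of -1.30 ± 0.29 (SD, n = 4). The near-term ductus arrays read -1.27, -0.93, -0.46 and -1.42, a mean of -1.02 ± 0.43 (SD, n = 4). The newborn ductus arrays read -0.44, -1.65, -0.68 and -0.63, a mean of -0.85 ± 0.54 (SD, n = 4). The 3 ductus groups overlapped one another, and replicate 2 was the lowest of the newborn ductus.

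In the aorta the same probe was well above background on 7 of 12 arrays, and its values were far more scattered. The preterm aorta arrays read -7.21, -4.99, -4.58 and -4.75, a mean of -5.38 ± 1.23 (SD, n = 4), with 3 of 4 well above background. The near-term aorta arrays read -5.78, -4.09, -3.60 and -5.36, a mean of -4.71 ± 1.03 (SD, n = 4), with 2 of 4 well above background. The newborn aorta arrays read -5.59, -7.74, -5.19 and -2.98, a mean of -5.38 ± 1.95 (SD, n = 4), again with 2 of 4 well above background. No aorta array came up to any ductus array: the highest aorta value was -2.98, on replicate 4 of the newborn, and the lowest ductus value was -1.65.

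**Figure D1:**
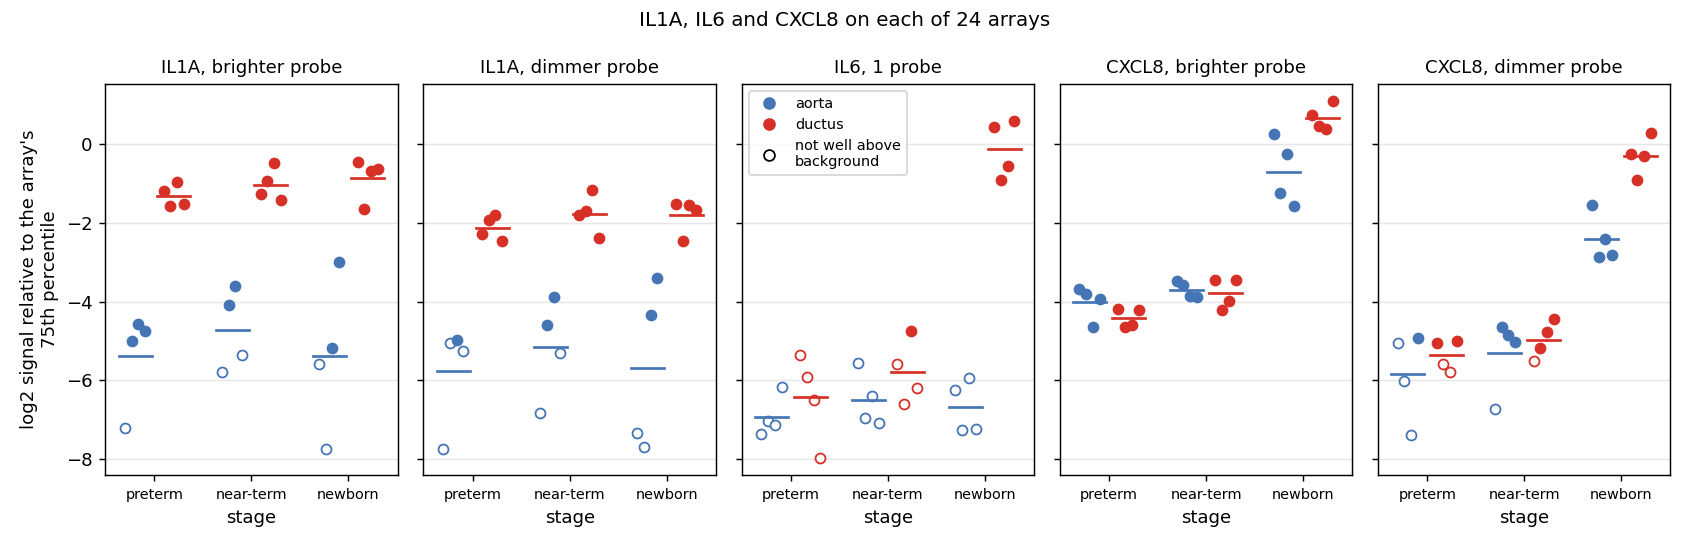
Log2 signal relative to the 75th percentile of the array (y axis) for each of the 5 probes of IL1A, IL6 and CXCL8 by stage (x axis), 1 point per array, blue for aorta and red for ductus. Open points were not well above background and bars are means of 4 arrays. IL1A separates the vessels at every stage, IL6 rises in the newborn ductus alone, from -5.78 to -0.10 on average, and CXCL8 rises in both newborn vessels.

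The ductus exceeded the aorta in IL1A by 4.08 ± 0.73 log2 units (SE of the fit over all 24 arrays) in the preterm fetus, which is 16.9-fold. The excess was 3.69 ± 0.73, or 12.9-fold, near term and 4.53 ± 0.73, or 23.0-fold, in the newborn. The dimmer probe gave 3.64, 3.39 and 3.90 log2 units (SE 0.81), the near-term and newborn values being 10.5- and 14.9-fold. No fold is given for the preterm fetus, where 1 of 4 aorta arrays was well above background. On that probe 12 of 12 ductus and 5 of 12 aorta arrays were well above background. Ductus and aorta did not overlap on either probe at any stage. Over all 13997 probes tested, the ductus lay above the aorta without overlap for 3.17% in the preterm, 3.61% in the near-term and 6.73% in the newborn animals. These differences chose the gene and are given without a test.

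The size of the IL1A excess rested on how the dim aortic signals were treated. Within each aorta group the arrays with a detection limit under 1.5 had the lowest IL1A values: -7.21 in the preterm group, -5.78 near term, and -5.59 and -7.74 in the newborn group. Over the arrays above 1.5 the aorta means were -4.77 (n = 3), -4.35 (n = 3) and -4.08 (n = 2). Ductus minus aorta was 5.95, 4.60 and 5.82 log2 units over the arrays under 1.5. The preterm and near-term values there each rest on 1 aorta array. Over the arrays above 1.5 it was 3.43 in the preterm and 3.49 in the near-term fetus, with no newborn ductus array in that class. With normexp background correction, which adds an offset of 50 and compresses dim signals, the excess was 1.97, 1.63 and 2.24 log2 units. On the brighter probe ductus arrays still lay above all aorta arrays at each stage with normexp. Near term the lowest ductus value, -1.08, and the highest aorta value, -1.21, were close. On the dimmer probe the near-term vessels overlapped with normexp. Aorta replicate 4 read -1.22 there, above ductus replicates 1 and 2 at -1.55 and -1.37. The ductus was the higher vessel under every setting tried.

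**Figure D2:**
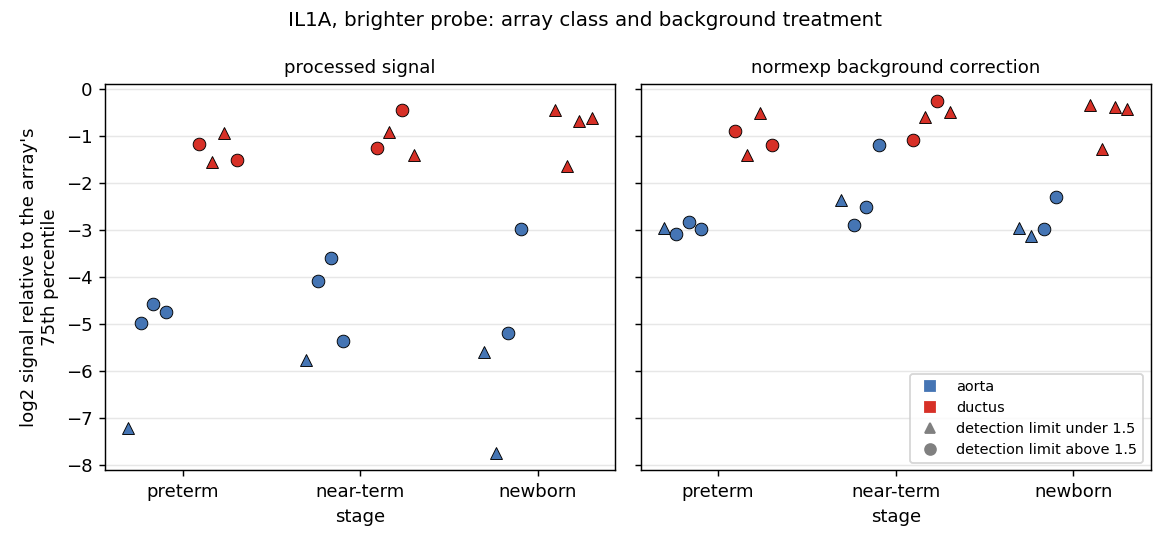
Log2 signal of the brighter IL1A probe relative to the 75th percentile (y axis) by stage (x axis), 1 symbol per array, from the processed signal (left) and after normexp background correction (right). Triangles are arrays with a spike-in detection limit under 1.5 and circles those above. The vessels separate in both panels, by 4.08 log2 units on the left and 1.97 on the right in the preterm fetus.

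At birth the change of IL1A was smaller than its standard error in both vessels. For this gene newborn minus near-term was 0.17 ± 0.73 log2 units (SE) in the ductus and -0.67 ± 0.73 in the aorta on the brighter probe, and -0.03 and -0.53 (SE 0.81) on the dimmer probe. The change in the ductus minus that in the aorta was 0.84 ± 1.03 and 0.50 ± 1.14 log2 units on these probes. Arrays of the near-term and newborn groups overlapped in both vessels and on both probes.

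IL6 was measured in a single group of the 6, the newborn ductus. The probe was well above background on 4 of 4 newborn ductus arrays and on 1 of 4 near-term ductus arrays. It was so on 0 of 4 arrays in each of the preterm aorta, preterm ductus, near-term aorta and newborn aorta, 5 of 24 arrays in all. The newborn ductus arrays read 0.44, -0.91, -0.55 and 0.61 for replicates 1 to 4, a mean of -0.10 ± 0.74 (SD, n = 4). Their processed signals were 1364, 455, 447 and 1609, against 7.8, 3.7, 10.1 and 5.5 on the newborn aorta arrays. Replicates 1 and 4 were thus the high pair of the newborn ductus, and the lowest newborn ductus signal was far above the highest newborn aorta signal.

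The mean of IL6 was -6.67 ± 0.68 (SD, n = 4) in the newborn aorta, -6.50 ± 0.70 in the near-term aorta and -6.92 ± 0.53 in the preterm aorta. It was -6.43 ± 1.12 in the preterm ductus, and these 4 groups, at background, have no order among them. The near-term ductus arrays read -5.59, -6.59, -4.75 and -6.19, a mean of -5.78 ± 0.80 (SD, n = 4), and replicate 3, the highest, was the array well above background. Its processed signal was 42.6.

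The newborn ductus exceeded the newborn aorta in IL6 by 6.57 ± 0.54 log2 units (SE). Since no newborn aorta array was well above background, the fold is a bound, and the newborn ductus read at least 42.4-fold higher. The bound sets the mean of the newborn ductus against the lowest signal well above background on each aorta array, or the probe's own signal where that was higher. From near term to newborn IL6 rose in the ductus by 5.67 ± 0.54 log2 units, a difference against a group in which 1 of 4 arrays was well above background, so that no fold is given. In the aorta both groups lay at background and the difference was -0.17 ± 0.54. The change in the ductus exceeded that in the aorta by 5.85 ± 0.76 log2 units. With normexp the newborn vessel difference was 2.88, the change in the ductus 2.24 and the excess of the ductus change 2.82 log2 units. All 4 newborn ductus arrays lay above all 4 near-term ductus and all 4 newborn aorta arrays in the processed signal. With normexp, near-term ductus replicate 4 read -0.92, above newborn ductus replicates 2 and 3 at -1.11. Over all probes tested, 7.27% rose in the ductus from near term to newborn without overlap.

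CXCL8 was detected everywhere and rose at birth in both vessels, further in the ductus. Its brighter probe was well above background on 24 of 24 arrays. In the fetus the 4 group means lay between -4.41 and -3.69: -4.01 ± 0.43 (SD, n = 4) in the preterm aorta, -4.41 ± 0.24 in the preterm ductus, -3.69 ± 0.20 in the near-term aorta and -3.78 ± 0.39 in the near-term ductus. Ductus minus aorta was -0.39 ± 0.32 log2 units (SE) in the preterm and -0.09 ± 0.32 in the near-term fetus, and the vessels overlapped at both stages.

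The newborn aorta arrays read 0.26, -1.23, -0.25 and -1.57 for replicates 1 to 4, a mean of -0.70 ± 0.85 (SD, n = 4). The newborn ductus arrays read 0.76, 0.47, 0.40 and 1.10, a mean of 0.68 ± 0.32 (SD, n = 4). The lowest newborn value, -1.57 on an aorta array, was above every fetal value, the highest of which was -3.44. Ductus and aorta of the newborn did not overlap, with 0.40 the lowest ductus and 0.26 the highest aorta value.

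From near term to newborn CXCL8 rose by 4.46 ± 0.32 log2 units (SE), or 21.9-fold, in the ductus and by 2.99 ± 0.32, or 7.96-fold, in the aorta. The dimmer probe gave 4.69 ± 0.50 in the ductus and 2.90 ± 0.50 in the aorta, 25.8- and 7.48-fold, with 3 of 4 near-term arrays of each vessel well above background. The rise in the ductus exceeded that in the aorta by 1.46 ± 0.45 log2 units on the brighter and 1.79 ± 0.71 on the dimmer probe. In the newborn the ductus was 1.38 ± 0.32 log2 units, or 2.60-fold, above the aorta, and 2.12 ± 0.50, or 4.35-fold, on the dimmer probe. Newborn and near-term arrays did not overlap in either vessel on either probe. Over all probes 5.7% rose in the aorta from near term to newborn without overlap, a count that chose these genes in part and from which nothing is read. With normexp the rise was 2.95 log2 units in the ductus and 1.51 in the aorta, while the newborn vessel difference, 1.41, and the excess of the ductus rise, 1.44, were close to those in the processed signal. With normexp the aorta groups overlapped: near-term replicate 4 read -1.15 and newborn replicate 4 read -1.34. Near-term replicate 4 was the highest array of its group with normexp for IL6 and CXCL8 in both vessels.

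**Figure D3:**
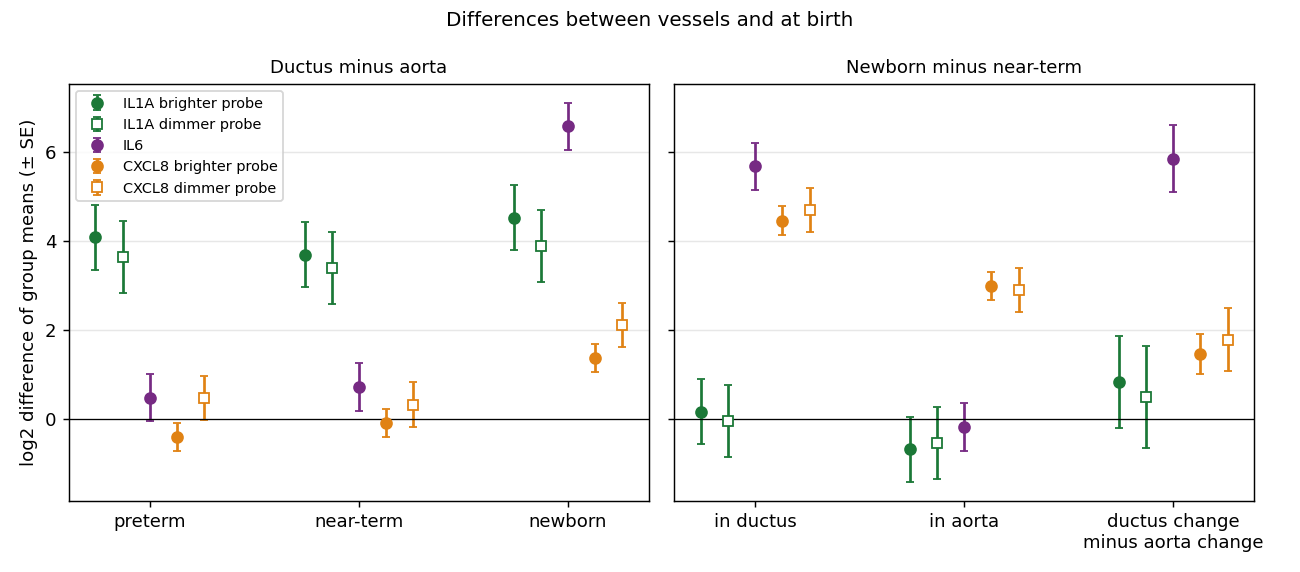
Log2 differences of group means with the standard error of the fit (y axis) for the 5 probes: ductus minus aorta at each stage (left) and newborn minus near-term in each vessel, with the difference between the changes (right). IL1A lies between 3.39 and 4.53 at all 3 stages on the left and between -0.67 and 0.84 on the right, IL6 and CXCL8 have their largest vessel differences in the newborn, 6.57 and, on the brighter probe, 1.38, and CXCL8 is the member with a rise in the aorta.

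Side by side, the 3 genes gave 3 patterns. The vessel difference of IL1A lay between 3.69 and 4.53 log2 units over the stages, while that of IL6 went from 0.49 and 0.72 at background in the fetus to 6.57 in the newborn. That of CXCL8 went from -0.39 and -0.09 to 1.38. In the newborn aorta IL6 stayed at background on 4 of 4 arrays, whereas CXCL8 was well above background on 4 of 4 and IL1A on 2 of 4. Within the newborn ductus IL6 and CXCL8 had the same high arrays, replicates 1 and 4, and the same low arrays, replicates 2 and 3, on the brighter CXCL8 probe. For IL1A replicate 2 alone was low there. No spot of the 5 probes was marked as an outlier or saturated on any array.

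Maturation of the fetus from preterm to near term was not itself the contrast that chose the genes, and it was tested. The fetal arrays did enter the choice, through the vessel difference of IL1A and the rise around birth of IL6 and CXCL8. The test is therefore not fully independent of that choice. None of the 3 genes passed, on any of the 5 probes, limma's moderated test with Benjamini-Hochberg adjustment over the 13997 probes. In the ductus near-term minus preterm was 0.28 ± 0.73 log2 units (SE, adjusted p = 0.867) for IL1A, and the 4 and 4 arrays overlapped. It was 0.65 ± 0.54 (adjusted p = 0.638) for IL6, at background in nearly all of these arrays, and 0.63 ± 0.32 (adjusted p = 0.471; unadjusted p = 0.0634) for CXCL8. In the aorta it was 0.67 ± 0.73 (adjusted p = 0.878), 0.42 ± 0.54 (adjusted p = 0.896) and 0.32 ± 0.32 (adjusted p = 0.858) for IL1A, IL6 and CXCL8. All 6 differences were above 0, as was the median of all probes, 0.22 in the ductus and 0.13 in the aorta. After quantile normalisation, which removes that shift, IL6 and CXCL8 were at -0.18 and -0.20 in the ductus and CXCL8 at -0.08 in the aorta.

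Of 79 genes listed for the pathways of these cytokines, 28 were on the array under a name that could be matched and 27 were tested. The list held relatives and receptors of interleukins 1 and 6, chemokines and their receptors, signal transducers, and genes known to be induced by these cytokines. It was drawn up with earlier results of these data known, so its counts are a description and no independent support. They use the brightest probe of each gene, while the shares given beside them are over all probes tested, most of them without a matched name. In the newborn, 15 of 27 were higher in the ductus and 0 lower, where 5.15% of all probes tested were higher and 4.97% lower. The list's median difference was 1.74 log2 units, against -0.28 for all probes. Higher probes made up 50.9% of all those called between the newborn vessels, and 68.5% after median centring of the arrays. From near term to newborn 14 of 27 rose in the ductus and 0 fell, where 4.37% of all probes rose and 6.45% fell. The list's median there was 1.66 log2 units, against -0.31 for all probes. Rising probes made up 40.4% of all those called, 60.7% after median centring, 54.6% after quantile normalisation and 12.8% with normexp, which called 14 of the list higher and 3 lower. In the aorta 3 of 27 rose and 0 fell, where 3.07% of all probes rose and 3.37% fell, with a median of 0.24 against -0.24.

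Among the relatives of interleukin-1, IL1B lies next to IL1A in the RefSeq gene order and codes for the secreted interleukin-1 beta. It was named here for that place, after its values were seen. Where IL1A was higher in the fetal ductus, IL1B was not called by limma in either direction. Its ductus minus aorta was -0.60 ± 0.47 log2 units (SE, adjusted p = 0.599) in the preterm and -0.64 ± 0.47 (adjusted p = 0.934) in the near-term fetus. The highest preterm ductus array, at -2.56, and the lowest preterm aorta array, at -2.54, nearly met. From near term to newborn IL1B rose in the ductus by 1.89 ± 0.47 (limma, adjusted p = 0.0138), from -2.24, -4.07, -2.92 and -3.03 to -0.95, -2.40, -0.70 and -0.66 on replicates 1 to 4. The 2 groups overlapped through newborn replicate 2, the array on which IL1A was also lowest. The change in the aorta was 0.38 ± 0.47 (adjusted p = 0.661), and the difference between the changes was not called, at 1.51 ± 0.67 (adjusted p = 0.587). IL18, another cytokine of this family, was higher in the newborn ductus by 1.74 ± 0.37 (adjusted p = 0.00484) on its brightest probe. Its other probes gave 1.07 (adjusted p = 0.075) and -2.32 (adjusted p = 0.13, well above background on 8 of 24 arrays). IL1RN, the receptor antagonist that blocks interleukin-1, read 2.08 ± 0.94 (adjusted p = 0.156) in that contrast.

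Among chemokines, CXCL1, which shares the receptor CXCR2 with CXCL8, was named after its values were seen. CXCL1 was well above background in all groups, with means between 1.54 and 2.12, and newborn minus near-term was 0.31 ± 0.33 log2 units (SE, adjusted p = 0.516) in the ductus and 0.58 ± 0.33 (adjusted p = 0.349) in the aorta. CXCR4, the receptor of the chemokine CXCL12, was 1.92 ± 0.32 (adjusted p = 0.000604) higher in the newborn ductus than in the aorta, and 0.90 (adjusted p = 0.0828) with normexp. It read 0.74 (adjusted p = 0.121) for the change of the ductus at birth. Of the 8 signal transducers tested, 3 rose in the ductus at birth, among them NFKBIA, the NF-kappaB inhibitor that NF-kappaB itself induces, by 1.59 ± 0.30 (adjusted p = 0.00178).

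Genes known to be induced by interleukin-1 or interleukin-6 made up most of the calls, with 10 of 13 rising in the ductus at birth and 11 of 13 higher in the newborn ductus than in the newborn aorta. PTGS2, the inducible cyclooxygenase that makes prostaglandins, read -1.58, -1.59, -2.25 and -1.50 in the near-term ductus and 2.29, 1.56, 1.74 and 2.11 in the newborn ductus. That is a rise of 3.66 ± 0.30 log2 units, or 12.6-fold (adjusted p = 1.9e-07). The newborn aorta, at -2.54, -2.05, -1.99 and -3.16, was 4.36 ± 0.30 below the newborn ductus (adjusted p = 2.44e-08). A dimmer PTGS2 probe, well above background on 9 of 24 arrays, gave -2.07 ± 1.13 (adjusted p = 0.19) for the change in the ductus, and with the mean of both probes the call was lost (0.79, adjusted p = 0.271). SAA3, an acute-phase serum amyloid, rose in the ductus by 5.52 ± 0.66 (adjusted p = 2.29e-05), from between 1.32 and 1.84 to between 5.91 and 8.06. Its highest newborn ductus arrays were again replicates 1 and 4. In the aorta its change was 1.34 (adjusted p = 0.269).

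SOD2, the mitochondrial superoxide dismutase, rose in the ductus by 3.26 ± 0.28 log2 units (SE, adjusted p = 2.63e-07) and PTX3, a long pentraxin, by 3.41 ± 0.29 (adjusted p = 2.63e-07). JUNB, a subunit of the AP-1 transcription factor, rose by 3.68 ± 0.41 (adjusted p = 1.07e-05) and CHI3L1, a chitinase-like secreted protein, by 3.29 ± 0.42 (adjusted p = 3.95e-05). TIMP1, an inhibitor of matrix metalloproteinases, rose by 2.45 ± 0.19 (adjusted p = 1.33e-07) and SELP, the adhesion molecule P-selectin, by 3.02 ± 0.38 (adjusted p = 3.82e-05). All 4 newborn ductus arrays lay above all 4 near-term ductus arrays for each of these genes, which were named for their small p in this contrast. Over all probes tested 7.27% rose there without overlap. Complement C3 was 2.63 ± 0.39 higher in the newborn ductus than in the newborn aorta (adjusted p = 0.000239). CHI3L1, SELP, SOD2, TIMP1 and PTX3 were also higher there, by 2.94, 2.68, 2.51, 2.21 and 1.76 log2 units. The dimmer PTX3 probe was not called by limma in that contrast, at 1.34 (adjusted p = 0.112).

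In the aorta the 3 genes that rose at birth beside CXCL8 were CD14, a co-receptor for bacterial lipopolysaccharide, by 1.07 ± 0.21 log2 units (SE, adjusted p = 0.00456), JUNB by 1.72 ± 0.41 (adjusted p = 0.0165) and TIMP1 by 0.73 ± 0.19 (adjusted p = 0.0264). Fitted on the near-term and newborn aorta arrays alone, none of these passed, with adjusted p of 0.162, 0.177 and 0.241. Without near-term aorta replicate 1, JUNB and TIMP1 missed the threshold (adjusted p = 0.0539 and 0.0819), and TIMP1 also missed it without near-term replicate 4 or newborn replicates 1 or 2, at up to 0.1. The test of the difference between the changes of the vessels called 6 of 27, all with the larger rise in the ductus, where 0.343% of all probes were called in that direction and 0.05% in the other. They were PTGS2 by 3.42 ± 0.42, SOD2 by 3.16 ± 0.39, CHI3L1 by 3.11 ± 0.59, SELP by 2.61 ± 0.54, PTX3 by 2.55 ± 0.41 and TIMP1 by 1.72 ± 0.27 (adjusted p between 0.000268 and 0.0323). The dimmer probes of SOD2 and TIMP1 were also called in this test. Those of PTGS2 (-1.45, adjusted p = 0.88), SELP (2.12, adjusted p = 0.261) and PTX3 (2.05, adjusted p = 0.429) were not. Over the arrays with a detection limit under 1.5, with 1 near-term aorta array, fewer were called. SELP lost its call without any 1 of 10 of the 16 arrays, with adjusted p up to 0.0902. These were near-term aorta replicates 2, 3 and 4, near-term ductus 2 and 4, newborn aorta 2 and 4, and newborn ductus 1, 3 and 4. The list's median difference was 1.51, against -0.19 for all probes.

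**Figure D4:**
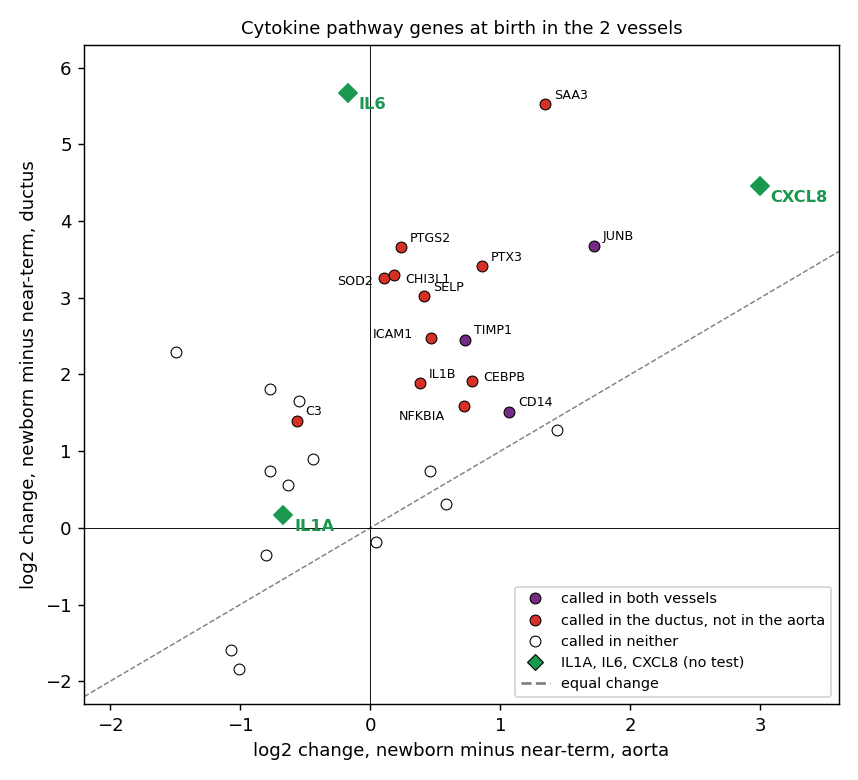
Log2 change from near-term to newborn in the aorta (x axis) and in the ductus (y axis) for 27 cytokine pathway genes (circles, 1 gene each, brightest probe) and for IL1A, IL6 and CXCL8 (diamonds, no test). Filled circles passed the test in the ductus or in both vessels and the dashed line marks equal change. The 14 genes called in the ductus lie above the line, IL6 is the point farthest above it, and CXCL8 has the largest change in the aorta, 2.99.

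Before birth few genes of the list passed between the vessels, and its medians, -0.21 in the preterm and -0.16 in the near-term fetus, lay near those of all probes, -0.20 and -0.12. In the preterm fetus 0 of 27 were higher in the ductus and 1 was lower, where 0.514% of all probes were higher and 0.193% lower. The lower gene was TLR4, the receptor for lipopolysaccharide, at -1.46 ± 0.27 log2 units (SE, adjusted p = 0.00976). TLR4 missed the threshold without preterm ductus replicate 1 (adjusted p = 0.05) and with normexp (-0.83, adjusted p = 0.407). Near term limma called 0 of 27, with 5 at an unadjusted p under 0.05, where 0.679% of all probes were higher and 0.472% lower. The smallest p values there belonged to PTGS2, 0.94 ± 0.30 (adjusted p = 0.207), and TLR4, -0.81 ± 0.27 (adjusted p = 0.242). Higher probes made up 72.7% of all those called in the preterm and 59% in the near-term fetus, and 87.9% and 75.5% after median centring.

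With maturation no gene of the list passed, as with the 3 cytokines, although its median was 0.65 log2 units in the ductus and 0.46 in the aorta, against 0.22 and 0.13 for all probes. The list's medians were 0.39 and 0.28 after median centring and 0.30 and 0.17 after quantile normalisation. Near-term minus preterm called 0 of 27 in the ductus, with 6 at an unadjusted p under 0.05, where 0.157% of all probes rose and 0.157% fell. It called 0 of 27 in the aorta, again with 6, where 0.229% rose and 0.264% fell. TLR4 in the ductus read 0.89 ± 0.27 (adjusted p = 0.192) and NFKBIA 0.87 ± 0.30 (adjusted p = 0.277). In the aorta PTX3 read 1.22 ± 0.29 (adjusted p = 0.0655) and SAA3 2.58 ± 0.66 (adjusted p = 0.094). Without near-term aorta replicate 4, SAA3 passed at 3.21 (adjusted p = 0.0309), and without near-term ductus replicate 4, TLR4 passed at 1.19 (adjusted p = 0.041). Rising probes made up 50% of those called in the ductus, 25% after median centring and 39.5% after quantile normalisation.

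Markers of blood and wall cells were read beside these results as the sum of their levels, relative to the 75th percentile. The neutrophil list, of which 4 of 10 genes could be tested, summed to 0.0277 to 0.211 in the newborn ductus and 0.274 to 0.903 in the newborn aorta. Its granule genes CATHL1B and BAC5 were called lower in the newborn ductus, and LTF was well above background on 0 of 4 arrays there. Near term both genes also read lower in the ductus, where each was well above background on 2 of 4 arrays. The test called 0 of the 4 neutrophil genes between the near-term vessels. CATHL1B read -4.64 in the near-term ductus and -1.29 in the near-term aorta, and -5.87 and -2.12 in the newborn vessels. BAC5 read -4.98 and -1.95 near term, and -5.96 and -2.50 in the newborn. The macrophage and monocyte list, with 3 of 8 genes tested, summed to 1.15 to 1.52 in the newborn ductus, 0.672 to 1.26 in the newborn aorta, and no more than 0.611 in any fetal group. CD14, which also belongs to the pathway list, rose at birth in both vessels, and CD86 was higher in the newborn ductus.

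The endothelial list, with 4 of 7 genes tested, summed to 2.07 to 2.99 in the newborn ductus and 0.569 to 1.11 in the newborn aorta, with NOS3 and SELP called higher in the ductus. SELP also belongs to the pathway list. The lymphocyte list, with 5 of 9 tested, summed to 0.389 to 0.822 in the newborn ductus and 0.181 to 0.781 in the newborn aorta. Its one called gene, CXCR4, is also in the pathway list. Of the T-cell genes, CD3E, CD3D and CD4 read lower in the newborn ductus than in the newborn aorta and CD5 read higher, none of them called. The means were -4.87 and -3.98 for CD3E, -6.50 and -4.65 for CD3D, and -7.44 and -4.97 for CD4. For CD5 they were -3.66 in the newborn ductus and -4.70 in the newborn aorta. CD3D and CD4 were well above background on 0 of 4 newborn ductus arrays. The mast cell list, with 3 of 5 tested, summed to 2.56 to 5.46 in the newborn ductus, down from 13.6 to 19.7 near term, and its protease TPSB2 fell at birth in both vessels. The fibroblast list, with 4 of 6 tested, was at 47.0 to 74.8 in the newborn ductus and 14.4 to 31.9 in the newborn aorta, a sum carried by DCN, the proteoglycan decorin. DCN and C3 were called higher in the newborn ductus. The collagens read lower in the ductus at each stage: COL3A1 had ductus means of -0.81, 0.14 and -0.38 against 1.00, 0.83 and 0.38 in the aorta from preterm to newborn. For COL1A1 they were -2.33, -2.55 and -2.87 against -1.83, -2.19 and -2.43. The erythrocyte gene HBB lay between 2.88 and 16.8 in the newborn ductus and between 0.724 and 6.99 in the newborn aorta. None of 4 platelet markers could be matched to a probe and tested. The part of these cell types in the levels of IL1A, IL6 and CXCL8 was not tested.

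The named genes whose 6 group means followed each cytokine most closely were found by the root mean square difference after centring each gene on its own mean, over 659 genes. This likeness is a description over 6 groups that share their arrays. For IL1A they were EDN1, the precursor of the vasoconstrictor endothelin-1, at 1.21 log2 units, GAL, the neuropeptide galanin, at 1.25, and VEGFA, the vascular endothelial growth factor, at 1.35, against a median of 2.25 over all genes. EDN1 had ductus means of -1.54, -1.86 and -1.64 and aorta means of -3.52, -3.39 and -3.38 from preterm to newborn, the ductus being the higher at each stage as for IL1A. GAL was well above background on 0 of 4 arrays in each aorta group. Near term its means were close, -5.92 in the ductus and -5.96 in the aorta, unlike those of IL1A. VEGFA had ductus means of -3.85, -3.08 and -0.89 and aorta means of -4.34, -3.90 and -5.63 from preterm to newborn. Its vessel difference was thus largest in the newborn. EDN1 was also nearest with normexp, followed there by C3 and SNAI2.

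For IL6 the nearest were PTGS2 at 0.81, CHI3L1 at 1.19 and SLC2A3, a glucose transporter, at 1.20, against a median of 2.59. With normexp they were other genes, MCL1, ICAM1 and SELP. For CXCL8 they were JUNB at 0.68, PTX3 at 0.73 and SAA3 at 0.98, against a median of 2.13, and JUNB and PTX3 were also nearest with normexp, followed by NFKBIA. Newborn aorta means of JUNB, PTX3 and SAA3 were 1.72, 0.86 and 1.34 above their near-term aorta means. Those of PTGS2 and CHI3L1 were 0.24 and 0.18 above theirs.

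**Figure D5:**
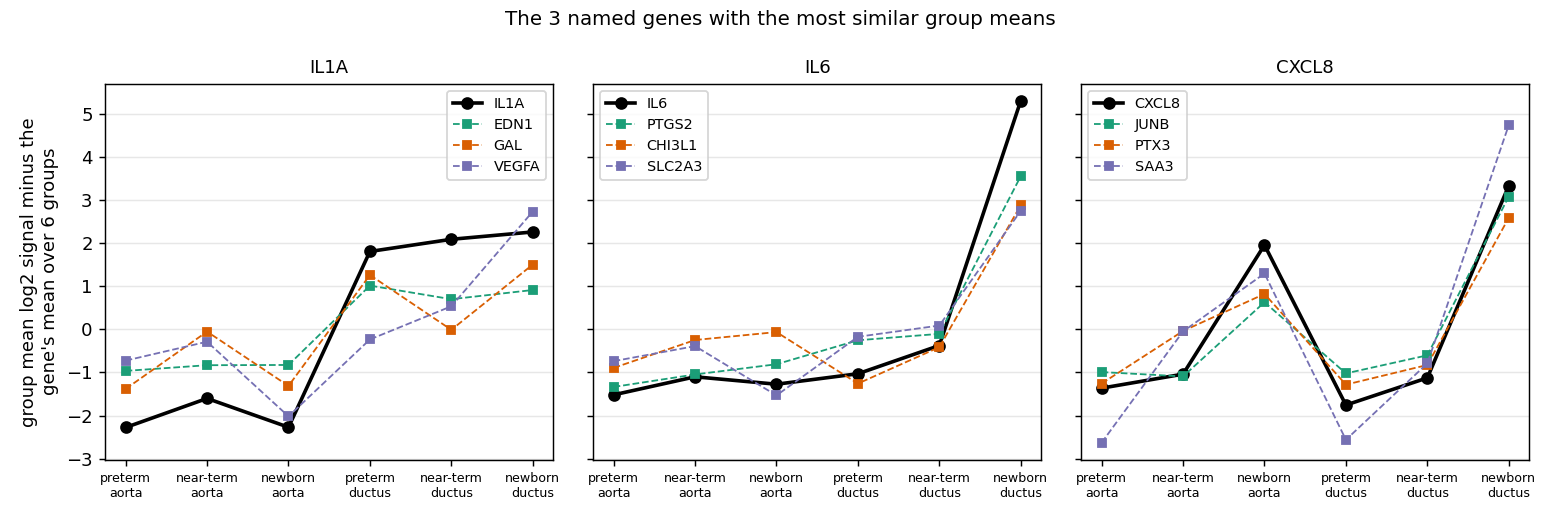
Group mean log2 signal minus the mean of the gene over 6 groups (y axis) for each of the 6 groups (x axis), for IL1A, IL6 and CXCL8 (black) and the 3 named genes nearest to each (colours). EDN1, like IL1A, is higher in the ductus at each stage, with smaller vessel differences than IL1A. PTGS2, like IL6, is highest in the newborn ductus. JUNB, PTX3 and SAA3, like CXCL8, are higher in each newborn vessel than before birth, with smaller rises in the aorta than CXCL8.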

How the data were processed

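Total RNA was labelled with Cy3 and hybridised to 1-colour Agilent arrays (design 019921). The values are spot intensity after background subtraction and detrending, deposited by the authors as Agilent Feature Extraction 9.5.3.1 output (protocol GE1-v5_95_Feb07), per the file headers; other steps are not given in the sources used here. Log2 of the processed signal was centred on the 75th percentile of non-control spots of the array. Outlier spots were left out, spots of a probe averaged, and the brightest probe stood for a gene. Probes well above background on 4 or more of 24 arrays entered the tests (13997 of 15008). limma 3.58.1 (R 4.3.3) fitted 6 group means, with p-values two-sided, Benjamini-Hochberg adjusted over all tested probes of a contrast, and calls under 0.05. The fit was tested on simulated data.

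The labels give each sample its group. Stage and vessel groups were compared in 8 contrasts, and those that chose the genes carry no test. The members and gene lists were chosen with earlier results of these data known. Named were the 3 genes, up to 8 called list genes per contrast by smallest p (the 2 smallest if none was called), and the 3 genes most alike to each member, with exceptions stated. Symbols came from array names, RefSeq accessions and gene IDs (assembly ARS-UI_Ramb_v3.0), with 1220 probes named for 694 symbols and 13788 unnamed. Of 276 pairs of arrays 0 were identical. Deviations of same-numbered ductus and aorta samples correlated between -0.59 and 0.82, with 6 of 12 pairs over 0.1. This does not settle whether they come from the same animals, and numbers were not taken as pairs. Precision is limited by 4 arrays per group.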

Additional observations from a re-analysis of the deposited data

Results flagged for a closer look

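In 6 of 108 gene and group combinations 1 array stood apart from the other 3 by Dixon's ratio of gap to range (above the 95% critical value for 4 samples). Chance gives about 1 in 20 such cases, or 5.4 here. For IL1A the array was replicate 1 of the preterm aorta on both probes, with a ratio of 0.843 on the brighter and 0.907 on the dimmer probe. It was the preterm aorta array with a detection limit under 1.5. For the list genes it was PTGS2 on near-term ductus replicate 3 (0.8787), SELP on newborn ductus replicate 2 (0.9971), PTX3 on near-term aorta replicate 2 (0.8636) and NFKBIA on preterm ductus replicate 4 (0.8488).

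The change from near term to newborn differed between the vessels, by limma's test of the difference itself with Benjamini-Hochberg adjustment, for 6 list genes. The ductus change exceeded the aorta change by 3.42 log2 units for PTGS2, 3.16 for SOD2, 3.11 for CHI3L1, 2.61 for SELP, 2.55 for PTX3 and 1.72 for TIMP1. These are the brightest probes, and the dimmer probes of PTGS2, SELP and PTX3 were not called.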

How the results depend on the processing

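Of the vessel and birth differences described for IL1A, IL6 and CXCL8, those given here moved by more than the spread between replicates; the cause was not tested. With normexp the IL1A vessel differences were 1.97, 1.63 and 2.24 from preterm to newborn. For IL6 the newborn vessel difference was 2.88, the ductus change at birth 2.24 and its excess over the aorta 2.82, and CXCL8 changed by 2.95 and 1.51 in ductus and aorta. With quantile normalisation CXCL8 changed by 5.04 and 3.73, and IL6 in the aorta by 0.61. With dim spots raised to the array floor the newborn IL6 difference was 5.41. Over arrays with a detection limit under 1.5 the IL1A difference was 5.95 in the preterm and 5.82 in the newborn animals, the IL6 change -1.21 in the aorta and its ductus excess 7.501. That class held 1 preterm and 1 near-term aorta array. No maturation test of the 3 genes passed under any setting. Signs turned for IL6 (-0.18) and CXCL8 (-0.20) in the ductus and CXCL8 (-0.076) in the aorta with quantile normalisation. They also turned for IL6 in the ductus over arrays under 1.5 (-0.19) and in the aorta over those above 1.5 (-0.046), a setting chosen after seeing the data.

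List calls between the preterm vessels were 0 with normexp, median centring, quantile normalisation, only the groups compared, and either class of arrays. Calls at birth in the aorta were 1 with median centring or a threshold of 0.01, 0 with only the groups compared or arrays above 1.5, and 5 with arrays under 1.5. The vessels' birth changes differed for 3 genes with the mean over all probes, and for fewer than on all arrays with those under 1.5. They differed for 10 with the detection limit class as a block, which also called 1 gene for maturation in the aorta. Leaving out 1 array at a time gave 0 to 1 calls in the preterm vessels and for maturation in each vessel, and 1 to 3 at birth in the aorta. It gave IL1A vessel differences of 3.47 to 4.35, 3.33 to 4.06 and 3.74 to 5.33. Whether equal replicate numbers mark the same animal is not known. With the replicate block 17 list genes were called between newborn vessels and 14 for the ductus at birth. The block changed no call of the 3 genes. The slide as a block could not be fitted apart from stage. Signals near background limit IL1A in the aorta and IL6 outside the newborn ductus.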
